A study of Caenorhabditis elegans with 2 samples.

Results

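The regions described here are the peaks of tagged SOX-4 on the X chromosome of first-stage (L1) Caenorhabditis elegans larvae. They were chosen as every region of the authors' optimal ce11 list that lies on X, which gave 315 of 1497 optimal peaks. The other 1182 optimal peaks lie on the 5 autosomes. The candidate list called on both replicates together held 30000 regions, 5963 of them on X, so 5648 X regions were left as candidates outside the optimal list. The optimal list made up 4.99% of all candidates and 5.28% of those on X.

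Chromatin was immunoprecipitated with an anti-GFP antibody and sequenced (ChIP-seq) in 2 biological replicates of 1 group. The animals were whole hermaphrodite larvae of strain OP517, genotype unc-119(tm4063) III; wgIs517, whose transgene encodes SOX-4 fused at its C-terminus to a GFP-FLAG tag. They hatched without food after bleaching and were taken 6 hours after synchronization, and the age is otherwise given as unknown. A strain lacking the tag was not analysed here. The labels do not say which stretch of DNA around sox-4 the transgene carries. Because whole animals were used, binding in fewer cells and weaker binding per cell cannot be told apart.

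SOX-4 belongs to the Sox family, transcription factors that bind the minor groove of DNA through an HMG box and prefer sites built around ACAAT or its complement. In C. elegans, hermaphrodites have a pair of X chromosomes and males a single one. A condensin-based dosage compensation complex binds X in hermaphrodites and lowers its transcription. It is recruited at scattered recruitment elements on X, known as rex sites, whose shared motif holds the core GCGCAGGG, and spreads from there to promoters. X also carries many of the worm's tRNA genes, whose internal B box is bound by the RNA polymerase III machinery.

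The sequences under the strongest X summits are shown first because the sequence matches described further on can be read in them. Each is the 101 bp window centred on the summit, on the plus strand of the RefSeq copy of ce11, 5′ to 3′. Capitals mark GCGCAGGG, the related word GCGAAGGG and the word ATCCACA on either strand. The last of these, and GCGAAGGG, were picked out after the windows had been read. The windows are those of the 6 strongest X peaks, the sox-4 intron peak and the strongest further peaks with a GCGCAGGG match inside the window shown.
X peak 1, chrX:13700810-13700910: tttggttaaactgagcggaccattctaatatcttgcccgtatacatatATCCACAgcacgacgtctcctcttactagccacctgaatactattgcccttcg
X peak 2, chrX:4209210-4209310: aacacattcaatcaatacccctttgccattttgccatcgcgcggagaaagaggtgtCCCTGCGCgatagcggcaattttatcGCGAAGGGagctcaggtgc
X peak 3, chrX:2997033-2997133: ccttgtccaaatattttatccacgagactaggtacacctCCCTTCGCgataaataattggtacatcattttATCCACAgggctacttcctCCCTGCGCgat
X peak 4, chrX:9465844-9465944: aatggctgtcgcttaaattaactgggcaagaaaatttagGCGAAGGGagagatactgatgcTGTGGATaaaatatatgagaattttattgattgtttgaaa
X peak 5, chrX:6296537-6296637: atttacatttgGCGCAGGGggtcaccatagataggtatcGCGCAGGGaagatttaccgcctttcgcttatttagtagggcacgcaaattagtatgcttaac
X peak 6, chrX:8036368-8036468: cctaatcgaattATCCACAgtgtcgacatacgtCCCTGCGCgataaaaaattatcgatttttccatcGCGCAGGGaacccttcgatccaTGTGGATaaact
X peak 8 in the sox-4 intron, chrX:3507341-3507441: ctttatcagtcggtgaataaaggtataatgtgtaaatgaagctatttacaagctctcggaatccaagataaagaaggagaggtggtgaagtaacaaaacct
X peak 12, chrX:14525859-14525959: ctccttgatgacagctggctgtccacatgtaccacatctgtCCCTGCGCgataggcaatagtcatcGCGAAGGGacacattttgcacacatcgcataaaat
X peak 14, chrX:806630-806730: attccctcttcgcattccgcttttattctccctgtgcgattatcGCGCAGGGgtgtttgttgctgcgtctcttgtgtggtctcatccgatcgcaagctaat

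In peaks 2, 3, 5, 6 and 12, these windows hold the GCGCAGGG core together with a further core or marked word. In peak 6 a pair of cores on opposite strands lies between 2 copies of ATCCACA. The sox-4 window holds no marked word.

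Signal, the authors' value for each region, ran from 51.3 to 550.1 over the 315 X peaks, with a median of 72.3 and quartiles of 58.8 and 100.3. Over the autosomal peaks it ran from 51.3 to 500.8, with a median of 77.3 and quartiles of 61.6 and 117.2. The X list therefore combined a slightly lower middle with a higher top. Of the X peaks, 25.7% had a signal of at least 100, against 31.6% of the autosomal peaks. This difference did not pass the threshold (odds ratio 0.751, two-sided Fisher's exact test, adjusted p = 0.064 over 7 features). It was -7.99 points and passed without the peaks that hold the GCGCAGGG core (adjusted exact p = 0.0128, range over the alternatives 0.0128 to 0.706). That alternative was chosen after seeing the data. It left out 14 X peaks, whose median signal was 257.0, and 1 autosomal peak, so a lower X share was built into it. The sign of the difference turned in the single-replicate lists, each with its own strongest regions as the peaks (0.600 to 0.935 points). The optimal X peaks have a median signal of 38.6 in each of those lists, so the limit of 100 is stricter there, and its part and that of the replicate cannot be told apart. Among the 25 strongest optimal peaks of the genome, 12 were X peaks and 13 were autosomal. The optimal list held the regions of highest pooled signal. At its edge the weakest X peak had 51.3302, and the strongest X region outside the list had 51.2839.

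The strongest X peak was intergenic, 6047 bp upstream of the 5′ end of K02D3.1, and its pooled signal was 550.1. Replicate 1 gave it 309.5, the highest of that list, and replicate 2 gave it 246.0, at rank 14. Peak 2 lay 1775 bp upstream of F20B6.9, with 228.5 in replicate 1 and 275.4 in replicate 2. Peak 3 lay in an intron of Y41G9A.17, with 236.6 in replicate 1 and 231.0 in replicate 2, and its interval holds a second summit that is X peak 33. Both replicates placed these intervals among their strongest regions.

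Peak 4, beside ZK899.6, had 232.1 in replicate 1 and 228.0 in replicate 2. Peak 5 lay in an intron of mom-1, which encodes the Porcupine homologue needed for Wnt secretion, and had 222.7 in replicate 1 and 231.3 in replicate 2. Peak 6 had 236.0 in replicate 1 and 229.0 in replicate 2. The nearest coding gene to peak 6 was xol-1, the early switch gene of sex determination and dosage compensation, whose 5′ end was 4895 bp away. The summit fell in the promoter window of the noncoding RNA gene C18A11.13 and not in that of xol-1. Peak 7, beside W02H3.3, had 216.3 in replicate 1 and 247.6 in replicate 2.

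Peaks 9 to 11 lay within 3 kb of F55G7.5, F19H6.5 and F22H10.2, with signals of 420.3, 411.1 and 397.1. Peak 12 was the strongest X peak in a coding promoter window, that of nspc-17, with a signal of 343.3. Peak 13 was upstream of the snoRNA gene T27A8.8 (336.9) and peak 14 near gtr-1 (316.5). Peak 15 lay in a coding exon of pks-1, a polyketide synthase gene, 15193 bp from the nearest coding 5′ end (285.7). Peaks 16 and 17 lay between genes, nearest to the collagen gene col-185 (264.2) and to fbxb-58 (253.9).

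Lower in the first 25, promoters became more common. Peak 18 was at epn-1, which encodes an epsin endocytic adaptor (252.4), and peak 20 was upstream of ins-39, which encodes an insulin-like peptide (249.8). Peak 22 was at puf-9, which encodes a Pumilio-family RNA-binding protein (213.5), and peak 23 upstream of the snoRNA gene W01H2.11 (210.3). Peak 25 lay between sec-15, which encodes an exocyst subunit, and C28G1.2 (187.7). The remaining 3 were peak 19 in the window of the RNA gene H01A20.4 (249.9), peak 21 near F56C3.1 (240.4) and peak 24 near hlh-29, a basic helix-loop-helix gene (188.4).

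At the weak end, peak 311 was at F54B11.5 and peak 312 at the ubiquitin-conjugating enzyme genes ubc-21 and ubc-22. Peak 313 was in an intron of txdc-12.2, peak 314 near ZC506.1 and peak 315 upstream of the tRNA gene T14F9.t1. Their signals lay between 51.3 and 51.7. In replicate 1 they ranged from 17.9 to 34.3 and in replicate 2 from 17.6 to 29.8.

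**Figure D1:**
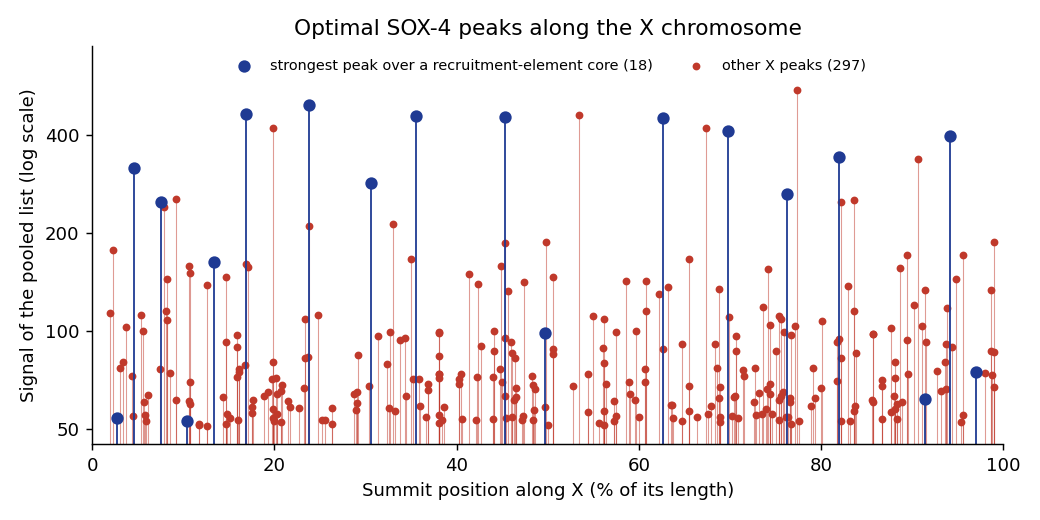
Signal of each optimal X peak (log scale) against the position of its summit along X (% of the chromosome's length). Blue points are the 18 peaks that are the strongest over a GCGCAGGG match and red points the other 297, and most of the highest points are blue and spread along the whole chromosome.

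The peaks were spread along X. The first summit was at 353357 and the last at 17545697 of 17718942 bp, which gives 17.8 summits per Mb, against 14.3 per Mb on the autosomes. Counts per Mb ran from 11 to 28 in the 17 whole 1-Mb bins, with 28 between 8 and 9 Mb and between 13 and 14 Mb. The longest stretch without an optimal summit was 424293 bp, from 4661428 to 5085721. Together the peaks covered 0.664% of X.

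Cut into 3 equal lengths, the left, middle and right of X held 30.2%, 33.0% and 36.8% of the peaks. The other X regions were divided into 32.6%, 31.2% and 36.2%. None of the 3 shares passed the threshold (two-sided Fisher's exact tests, adjusted p = 0.739, 0.739 and 0.857), and the differences ran from -2.44 to 1.82 points.

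Another optimal summit lay within 5 kb of 37.5% of the X peaks and of 30.9% of the autosomal peaks (odds ratio 1.34, adjusted exact p = 0.0523). Over 9 alternatives the adjusted exact p ran from 0.000644 to 0.536. The difference was 10.88 points and passed with replicate 2 left out. The median distance to the nearest other summit was 9531 bp on X and 15161 bp on the autosomes. Chaining summits at 5 kb gave 50 groups on X, 12 of them with at least 3 summits. The largest was a run of 7 peaks from X:6736644 to X:6744192 around mdl-1, a Mad-family bHLH gene, with signals from 52.1 to 98.5. Runs of 4, named like the largest after their values were seen, lay near cysl-1 (highest signal 109.3) and near cab-1 (highest signal 134.9). None of the peaks in these 3 groups was among the 25 strongest on X.

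X peaks were less often at promoters than autosomal peaks. A promoter window ran from 1000 bp before to 200 bp past an annotated 5′ end, and it held the summit of 175 of 315 X peaks (55.6%, exact 95% interval 49.9 to 61.1%). The autosomal count was 830 of 1182 (70.2%, 67.5 to 72.8%). The odds ratio was 0.530 (two-sided Fisher's exact test, adjusted p = 5.2e-06). For coding genes alone the counts were 108 of 315 (34.3%) on X and 706 of 1182 (59.7%) on the autosomes, with an odds ratio of 0.352 (adjusted exact p = 6.2e-15). Coding promoter windows cover 17.6% of X and 22.3% of the autosomes, and coding genes are sparser on X, at 154.1 per Mb against 208.9 per Mb.

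Measured to the closest coding 5′ end, X summits had a median distance of 1432 bp (quartiles 440 and 3428 bp), against 393 bp (167 and 1844 bp) for autosomal summits. On X, 129 peaks (41.0%) were more than 2 kb away, against 282 (23.9%) on the autosomes. The summit lay upstream of that 5′ end at 63.2% of X peaks and 73.9% of autosomal peaks. Of the 140 X peaks outside promoter windows, 77 were intergenic and 53 intronic, while 6 were in coding exons, 3 in 3′ UTRs and 1 in a noncoding gene. Their median signal was 69.4, against 74.6 for the 175 X peaks in promoter windows.

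The opposite held against the other X regions, of which 2058 of 5648 (36.4%, 35.2 to 37.7%) had their summit in a promoter window (odds ratio 2.18, adjusted exact p = 2.87e-11 over 2 features). Set against only the next 315 X regions by signal, of which 49.5% were in promoter windows, the difference was 6.03 points and did not pass (adjusted exact p = 0.151, range over the alternatives 1.06e-19 to 0.151).

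**Figure D2:**
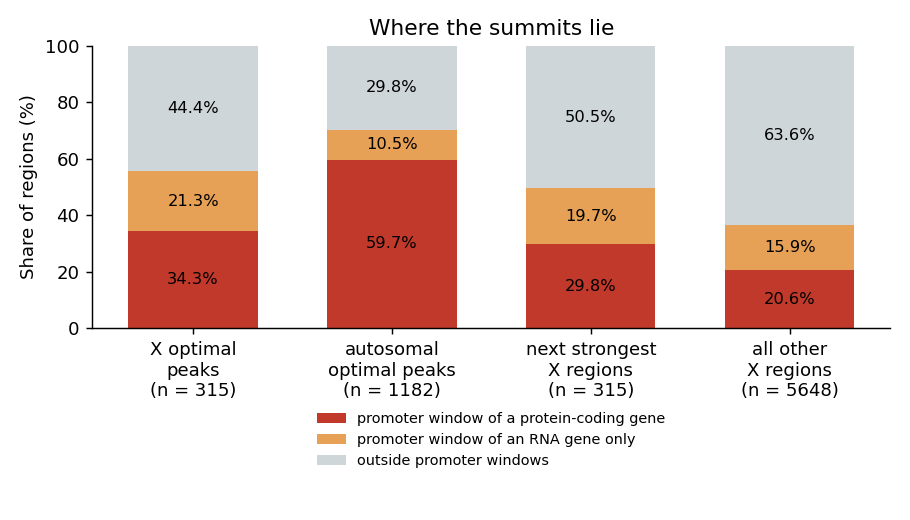
Share of summits (%) in the promoter window of a coding gene, of an RNA gene only, or outside promoter windows, for X optimal peaks, autosomal optimal peaks, the next 315 X regions by signal and all other X regions. Coding promoters hold 34.3% of X peaks and 59.7% of autosomal peaks.

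The promoter shortfall was large at the very top of the list. Of the 25 strongest X peaks, 9 lay in a promoter window and 5 in a coding one. Of the 25 strongest autosomal peaks, 20 lay in a promoter window and 19 in a coding one. Among the next 25 X peaks the count was 17 of 25, and it was between 49.2% and 68.0% in the lower classes. In all, 14 X peaks exceeded a signal of 300, and 11 of these were outside promoter windows. These counts by rank are descriptions without a test.

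**Figure D3:**
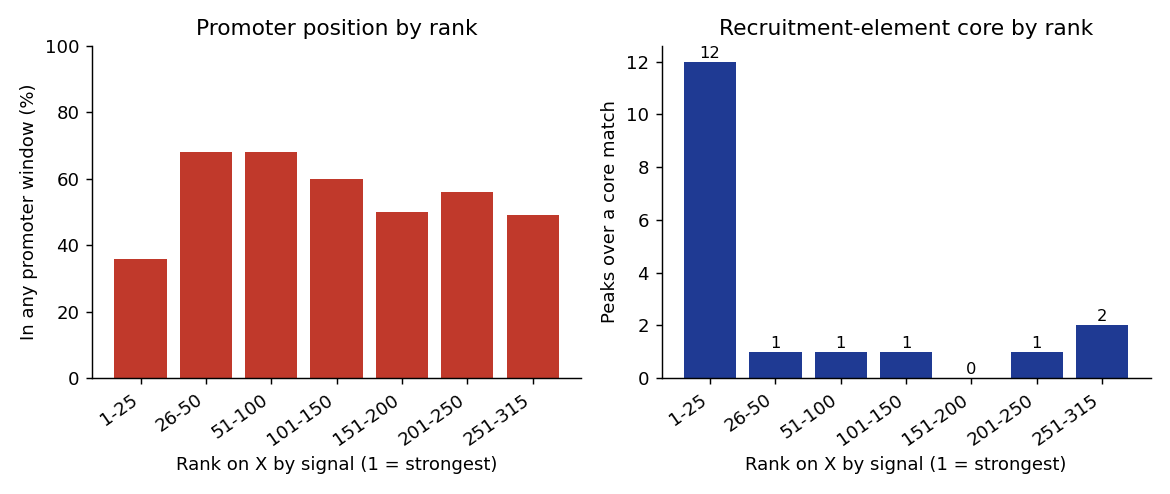
X peaks in classes of rank by signal, with the share in any promoter window (%) on the left and the number of peaks over a GCGCAGGG match on the right, each match counted at the strongest peak covering it. The 25 strongest peaks have the lowest promoter share (9 of 25) and 12 of the 18 peaks with the core.

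A larger share of X peaks than of autosomal peaks was wider than 300 bp, and a smaller share was narrower than the commonest width. The commonest width, 396 bp, was found for 268 of the X peaks (85.1%) and 934 of the autosomal peaks (79.0%). It was also the width of 5647 of the 5648 other X regions. Narrower than that were 33 X peaks (10.5%) and 247 autosomal peaks (20.9%). Peaks of exactly 396 bp made up 268 of the 285 X peaks and 934 of the 944 autosomal peaks wider than 300 bp. More than 300 bp wide were 90.5% of the X peaks and 79.9% of the autosomal peaks (odds ratio 2.40, adjusted exact p = 1.13e-05). Almost all peaks below a signal of 100 were wider than 300 bp, 99.1% on X and 98.9% on the autosomes. Among those with a signal of at least 100 the share was 65.4% on X and 38.6% on the autosomes. Peaks wider than 396 bp numbered 14 on X and 1 on the autosomes, and those on X reached 759 bp. Of these 14, 10 were outside promoter windows. Overlapping entries of the list are each counted here. Peaks 3 and 33 share 1 interval of 556 bp, and the widest, peak 96, overlaps peak 12.

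The core of the recruitment element motif, GCGCAGGG, was found within 50 bp of the summit in 14 of 315 X peaks (4.44%, exact 95% interval 2.45 to 7.34%), counting both summits of the interval that peaks 3 and 33 share. It was found in 1 of 1182 autosomal peaks (0.0846%, odds ratio 54.9, two-sided Fisher's exact test, adjusted p = 2.89e-08 over 9 motifs). Of the other X regions, 3 of 5648 held it (0.0531%, odds ratio 87.5, adjusted exact p = 2.64e-15 over 9 motifs). Of these 3, 2 were among the next 315 X regions by signal (0.635%, odds ratio 7.28, adjusted exact p = 0.0337, range over the alternatives 1.19e-17 to 0.0337). Of all 101 bp windows laid end to end, 0.0388% held the core on X and 0.0263% on the autosomes. In flanks 400 to 500 bp from the summits of X peaks, none held it on either side. The first comparison passed under all 8 alternatives run for it and the second under all 9. The 9 motifs, this core among them, were chosen with earlier results of these data known, so these p-values only describe the lists.

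Over the whole of X the core occurs 81 times, or 4.57 times per Mb, against 233 times, or 2.82 per Mb, on the autosomes. Of the 81 on X, 23 were inside an optimal peak, 9 inside another candidate region and 49 in neither. Of the 233 on autosomes, 3 were inside an optimal peak, 20 inside another candidate and 210 in neither. Thus 28.4% of the X matches and 1.29% of the autosomal matches lay in optimal peaks. The median distance of the 23 X matches from the summit was 38.5 bp.

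Counted at the strongest peak covering them, the 23 matches fell in 18 X peaks, 5 of which held 2 matches. Of these 18 peaks, 12 were among the 25 strongest on X, and 11 were among the 16 strongest. They were spread over the chromosome, with 8 in the left part, 4 in the middle and 6 in the right of 3 equal lengths, and a median spacing of 867044 bp. Outside promoter windows lay 13 of the 18. The 14 peaks with the core near the summit had a median signal of 257.0, against 71.5 for the 301 X peaks without it. Of these 14, 12 had a region among the 1497 strongest of each replicate.

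Not every peak with the core was strong, as 3 examples chosen after their values were seen show. Peak 86, at R04E5.9, had 52.9 in replicate 1 and 44.03 in replicate 2, and peak 144, near B0302.2, had 41.1 and 37.4. Peak 282, in an intron of the fibroblast growth factor gene egl-17, had 29.7 in replicate 1 and 24.2 in replicate 2. Its summit was also 55 bp upstream of the tRNA gene F38G1.t2. In the other direction, 4 of the 12 strongest X peaks held no core match anywhere in the interval: peaks 1, 4, 8 and 9. Peak 4 held both other marked words, peak 1 held ATCCACA, and the sox-4 peak and peak 9 held none of them near the summit.

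The bases around the core differed between matches in peaks and matches elsewhere on X, which was noticed after the sequences had been read and was not tested. Examples from inside peaks 2, 11 and 16 are shown beside 2 matches outside all listed regions, each with 6 bases on either side and the core in capitals.
Peak 2, chrX:4209266-4209273, minus strand: gctatcGCGCAGGGacacct
Peak 11, chrX:16682172-16682179, minus strand: aacatcGCGCAGGGaacatc
Peak 16, chrX:13514558-13514565, plus strand: tttatcGCGCAGGGatattg
No region, chrX:1610582-1610589, plus strand: cagatcGCGCAGGGcagagc
No region, chrX:2312660-2312667, minus strand: ttcatcGCGCAGGGcttcca

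The bases ATC directly before the core were found at 13 matches on X, and 11 of these were inside optimal peaks. The 2 exceptions are the last pair shown. Of the 68 X matches without ATC before the core, 12 were inside optimal peaks and 9 in other candidate regions. On the autosomes 2 of the 233 matches had ATC before the core, and neither was in a candidate region. An A directly after the core followed 17 of the 23 matches in X peaks and 17 of the 58 elsewhere on X.

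The related word GCGAAGGG was within 50 bp of 8 X summits, no autosomal optimal summit and 5 of the other X summits. ATCCACA was within 50 bp of 8 X summits (2.54%), 14 autosomal summits (1.18%) and 45 other X summits (0.797%). At least 1 of the 3 words was present in 13 of the 25 strongest X peaks and in none of the 25 strongest autosomal peaks. In 6 X peaks at least a pair of the 3 words occurred together, and all 6 were among the 25 strongest. No autosomal optimal peak and no other X region held such a pair. The last 2 words were chosen after the values were seen, so these counts are descriptions.

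**Figure D4:**
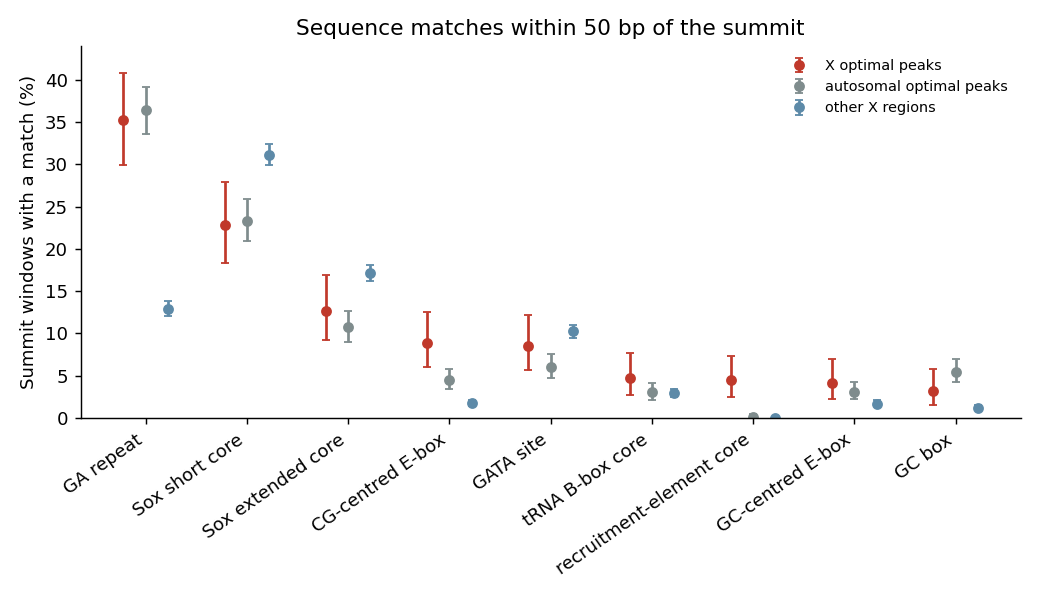
Share of summit windows (50 bp each side, %) with a match to each of 9 motifs, for X optimal peaks, autosomal optimal peaks and other X regions, with exact 95% intervals. The recruitment-element core is at 4.44% of X peaks and near 0 in both other groups, and the GA repeat is at about the same share in both sets of optimal peaks.

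Sox-type sequences were not more frequent under X peaks. ACAAT, on either strand, was within 50 bp of 22.9% of X summits and 23.4% of autosomal summits (odds ratio 0.973, adjusted exact p = 0.881). Among the other X regions it was at 31.1%, a higher share than at X peaks (odds ratio 0.655, adjusted exact p = 0.00377). That call was lost against the next 315 X regions by signal (-2.22 points, adjusted exact p = 0.648), at 35% to 55% GC (-4.03 points), outside promoter windows (-4.42 points) and in the strongest 748 peaks (-8.04 points, adjusted exact p = 0.0534), with a range over the alternatives of 2.53e-06 to 0.648. For the strongest 748 peaks, here and for the longer core, the weaker optimal X peaks were counted among the other X regions. Over all X windows the share with ACAAT was 31.7%. The longer core (A or T, A or T, CAA, A or T, G) was at 12.7% of X summits, 10.7% of autosomal summits (adjusted exact p = 0.474) and 17.1% of the other X summits (adjusted exact p = 0.0569). The difference from other X regions passed in the strongest 748 peaks (-9.25 points, adjusted exact p = 0.00499) and with overlapping peaks counted once (-4.82 points, adjusted exact p = 0.0368), with a range over the alternatives of 0.00499 to 0.648. In flanks 400 to 500 bp away the share of X peaks with ACAAT was 30.2% on the left and 28.9% on the right.

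X peaks were richer in G and C than the rest of X. Of the 101 bp windows at X summits, 50.2% had a GC content of at least 45%, against 10.7% at the other X regions (odds ratio 8.37, adjusted exact p = 3.39e-62). Of the next 315 X regions by signal 35.6% reached that content, a difference of 14.6 points (adjusted exact p = 0.000569, range over the alternatives 3.18e-66 to 0.000569). Autosomal peaks were at 49.2%, and this difference did not pass (odds ratio 1.04, adjusted exact p = 0.752), and its sign turned with either replicate left out (-4.15 to -2.15 points). The median GC content was 45.5% at X summits and 44.6% at autosomal summits. Soft-masked repeat sequence made up a median of 0% of the windows at X summits, 20.8% at autosomal summits and 30.7% at other X regions.

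GAGAG, a short GA repeat, was within 50 bp of 35.2% of X summits, 36.4% of autosomal summits (adjusted exact p = 0.834) and 12.9% of other X summits (odds ratio 3.66, adjusted exact p = 1.87e-21). Of the next 315 X regions by signal 28.6% held it, and that difference of 6.67 points did not pass (adjusted exact p = 0.262, range over the alternatives 6.79e-25 to 0.262). Inside promoter windows it was at 85 of 175 X summits (48.6%) and 294 of 830 autosomal summits (35.4%). Outside promoter windows it was at 26 of 140 X summits (18.6%) and 136 of 352 autosomal summits (38.6%). The difference outside promoter windows was -20.06 points and passed the threshold (adjusted exact p = 5.6e-05, range over the alternatives 5.6e-05 to 1). The difference inside promoter windows was not tested.

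The E-box CACGTG was at 8.89% of X summits, 4.48% of autosomal summits (odds ratio 2.08, adjusted exact p = 0.0205) and 1.79% of other X summits (odds ratio 5.36, adjusted exact p = 2.18e-10). Against the next 315 X regions by signal, at 4.13%, the difference of 4.76 points did not pass (adjusted exact p = 0.102, range over the alternatives 4.08e-12 to 0.102). With replicate 1 left out the difference from the autosomes was 2.97 points (adjusted exact p = 0.103), and with replicate 2 left out it was 1.21 points (adjusted exact p = 0.763). Over all its alternatives the adjusted exact p ran from 0.0127 to 0.763. All 28 X peaks with this E-box had signals of 186.3 or less.

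The E-box CAGCTG and the GC box CCGCCC were at 4.13% and 3.17% of X summits, and at 1.72% and 1.20% of other X summits (adjusted exact p = 0.0113 for both). Both calls were lost against the next 315 X regions by signal (1.59 and 1.27 points, adjusted exact p = 0.648 for both), outside promoter windows (0.527 and 2.43 points) and at 35% to 55% GC (1.38 and 0.710 points). CAGCTG was also lost with replicate 2 left out (1.36 points, adjusted exact p = 0.13). Over the alternatives the adjusted exact p ran from 0.00024 to 0.648 for CAGCTG and from 0.00042 to 0.648 for CCGCCC. Against the autosomal shares of 3.13% and 5.50% neither passed (adjusted exact p = 0.488 and 0.276). The GATA-type TGATAA was at 8.57% of X summits, 6.01% of autosomal summits and 10.2% of other X summits, and neither difference passed (adjusted exact p = 0.276 and 0.388). The tRNA B-box core GTTCGA was at 4.76% of X summits, 3.05% of autosomal summits and 2.90% of other X summits, and neither difference passed (adjusted exact p = 0.288 and 0.0969). The difference of GTTCGA from other X regions passed within 100 bp of the summit (3.45 points, adjusted exact p = 0.0327, range over the alternatives 0.0327 to 0.874) and had the opposite sign outside promoter windows (-1.33 points).

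A second set of X peaks lay at tRNA genes. The promoter window of a tRNA gene held 40 X summits (12.7%), 20 autosomal summits (1.69%) and 150 other X summits (2.66%). Of the next 315 X regions by signal it held 26 summits (8.25%), 23 of them within 100 bp of a tRNA gene's 5′ end. X carries 276 annotated tRNA genes, or 15.6 per Mb, and the autosomes 336, or 4.07 per Mb. Of the 40 X summits, 34 were within 100 bp of a tRNA gene's 5′ end, and 4 were also in a coding promoter window. GAGAG was near the summit of 26 of the 40. Their signals ran from 51.3 to 187.7 with a median of 72.2, which is near the median of all X peaks. Leaving these peaks out of both sets, 135 of 275 X peaks (49.1%) and 810 of 1162 autosomal peaks (69.7%) were in a promoter window. No test was made on tRNA counts.

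The strongest X peaks in tRNA promoter windows were at C28G1.t1 (187.7), R04A9.t1 (177.9), and M02F4.t1 with its neighbour M02F4.t2 (157.4). The first is X peak 25, which is also in the coding promoter windows of sec-15 and C28G1.2. Its summit lay 9 bp upstream of C28G1.2 and 106 bp upstream of the tRNA gene, so the 2 cannot be told apart. In all, 48 of the 276 X tRNA genes (17.4%) had an optimal peak in the window, 116 had a weaker candidate and 112 had none. The background was 4.88% of RNA genes other than piRNA genes on X and 4.25% of protein-coding genes on X with an optimal peak. That RNA background, 144 of 2951 genes, includes these 48 of 276 tRNA genes. Neighbouring tRNA genes can share 1 peak, as the 48 genes share 40.

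Annotated ncRNA genes formed the largest RNA class, with 68 X summits (21.6%), 161 autosomal summits (13.6%) and 906 other X summits (16.04%) in their promoter windows, and a summit can also lie in the window of another class. X has 2520 annotated ncRNA genes and the autosomes 5244, and no test was made on these counts. Of 74 microRNA genes on X, 4 (5.41%) had an optimal peak, near the 4.88% background, which includes the tRNA genes. These were the neighbours mir-54, mir-55 and mir-56, which share a peak of 155.2, and mir-264 (89.2). Of 33 snoRNA genes, 4 had one: T27A8.8 (336.9), W01H2.11 (210.3), M163.14 (92.3) and K09E9.5 (80.7). Both snoRNA examples at the top are also among the 25 strongest X peaks.

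Most lists of coding genes on X are too small for a share to be read against the 4.25% background. None of the 6 sex determination and dosage compensation genes on X had an optimal promoter peak, although 3 had a weaker candidate. The count was also 0 for 24 homeobox genes, 9 synaptic and gap junction genes, 5 yolk protein genes, 4 heterochronic genes and 3 Wnt genes. Of 37 neuropeptide genes 1 had an optimal promoter peak, ins-39, and of 29 collagen genes 1 had one, dpy-8 (60.3). Of 23 nuclear hormone receptor genes 3 had one, and these were nhr-48 (156.5), nhr-255 (60.6) and nhr-167 (55.7). The nhr-255 peak, 539 bp upstream of that gene, also lay 21 bp inside the tRNA gene ZK678.t1, so it cannot be assigned to either gene.

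Of 2 ribosomal protein genes, rpl-11.2 had an optimal promoter peak (139.0). Of 5 chaperone genes, hsp-3, which encodes an endoplasmic reticulum Hsp70, had a peak of 95.5 and dnj-7 one of 53.8. Inside gene bodies, optimal peaks were found in mom-1, in the homeobox gene ceh-36 (107.8), in lin-14, the heterochronic gene of early larval fates (91.4), and in daf-12, a nuclear receptor gene of developmental timing (54.7). Of the 23 nuclear hormone receptor genes listed, 5 had an optimal peak in the gene body and none in the promoter window. These were nhr-40 (146.6), nhr-3 (82.7), nhr-17 (76.1), nhr-45 (58.1) and nhr-35 (53.4). The nhr-17 peak also lay 42 bp upstream of the tRNA gene C02B4.t2, so it cannot be assigned to either gene. No share of all X gene bodies with an optimal peak was computed. Of the 4 Sox genes on X, sox-4 had a promoter peak and sox-2 had a peak in the gene body (53.3).

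At sox-4 itself, 3 optimal peaks lay close together, from X:3506265 to X:3509642. The middle one, in an intron, was X peak 8, whose signal was 421.5 in the pooled list, 203.1 in replicate 1 and 236.6 in replicate 2. The promoter peak, at -439 bp from the 5′ end, had 80.3, with 27.6 in replicate 1 and 47.6 in replicate 2. The third, also intronic, had 71.6, with 38.1 in replicate 1 and 39.2 in replicate 2. Another 3 peaks lay in npr-16, a predicted neuropeptide receptor gene next to sox-4, with signals of 57.7, 54.3 and 53.0. The first of these 3 is the one X peak with no region in replicate 1, and it had 28.2 in replicate 2. The part of transgene copies of this stretch in these signals was not tested. Leaving out all 6 peaks within 20 kb of sox-4 changed no call in the comparisons with autosomes or with other X regions.

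The replicates agreed at the top of the X list and less at its end. Regions among the 1497 strongest of each replicate were found under 201 of the 315 X peaks (63.8%), against 777 of 1182 autosomal peaks (65.7%, odds ratio 0.919, adjusted exact p = 0.64). In replicate 1 alone such a region was found for 45 X peaks, in replicate 2 alone for 56, and in neither for 13. All 50 of the strongest X peaks had such support in both, as did 49 of the 50 ranked 51 to 100. Of the last 65 peaks 6 did. Rank on X is by pooled signal, to which both replicates contribute, and the cut of 1497 is the length of the optimal list. More support at the top than at the end is thus partly built into the ranking.

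The log2 ratio of signal, replicate 1 over replicate 2, had a median of 0.02 on X over 314 peaks, with quartiles of -0.31 and 0.36. On the autosomes the median was 0.03. Replicate 1 was higher at 162 of the 314 X peaks. The Spearman correlation of the replicates was 0.567 across X peaks and 0.622 across autosomal peaks, given as descriptions over regions that share libraries and were selected by their joint signal. The optimal list was chosen by pooled signal, to which both replicates contribute.

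The X peak with the highest ratio was at hsp-3, with 72.9 in replicate 1 and 13.6 in replicate 2 (log2 ratio 2.42). The lowest was at F35A5.8, with 8.70 in replicate 1 and 42.1 in replicate 2 (log2 ratio -2.27). At the collagen gene dpy-8 replicate 1 had 11.4 and replicate 2 had 50.9 (log2 ratio -2.15). These 3 were named after their values were seen, and their pooled signals were 95.5, 61.2 and 60.3. With 2 replicates there is no test of a single peak's difference between them.

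**Figure D5:**
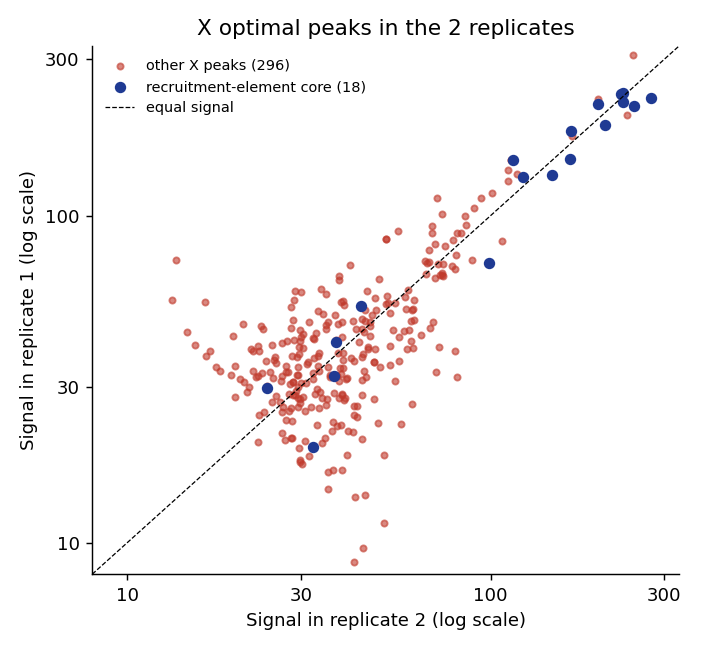
Signal in replicate 1 against signal in replicate 2 for the 314 X peaks with a region in both lists (log scales), with the line of equal signal. The strong peaks, many of them over a recruitment-element core (blue), lie close to the line. The points farthest from it have a low signal in 1 replicate, as at hsp-3 (72.9 in replicate 1 and 13.6 in replicate 2). Peaks that overlap the same replicate region can carry the same values.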

How the data were processed

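The authors deposited, per the file notes, region lists for each replicate and for both together, using control reads, and the optimal list chosen by irreproducible discovery rate. The caller, its version and that threshold: not given in the sources used here. Signal is the deposited narrowPeak signal column, the authors' own value for each region, used to rank and describe. Read depth is unknown, so intervals cover the counting of regions only. Coordinates are 1-based on ce11. Gene positions came from Ensembl release 115, symbols from RefSeq (WormBase release 298) and sequence from RefSeq. Pseudogenes were left out.

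Fisher's exact test, two-sided, compared shares, with p-values Benjamini-Hochberg adjusted within families of 7, 2, 3, 9 and 9 tests, at 0.05. Regions, not animals, were the units, so p-values describe the lists. The test was checked on simulated data. Members, lists and motifs were chosen with earlier results of these data known. Named genes are those at the 25 strongest and 5 weakest X peaks, up to 4 per list by promoter peak, those at up to 10 peaks with the GCGCAGGG core, and sox-4, npr-16 and xol-1. Genes at grouped peaks, list members with a peak in the gene body alone, weak peaks with the core and peaks that differ between replicates were named after their values were seen. Alternatives changed windows, thresholds, backgrounds, replicate lists and build (18 planned, 3 chosen after seeing the data). With a replicate left out, the strongest regions of the other replicate's own list took the place of the optimal peaks. On X these were 319 regions for replicate 1 and 316 for replicate 2, and the rest of that list took the place of the other regions. Python 3.11.15 and scipy 1.17.1 were used.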

Additional observations from a re-analysis of the deposited data

How the results depend on the processing

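Values are differences in percentage points, X peaks minus the other group. With the strongest 748 peaks, the weaker optimal X peaks were counted among the other X regions. Lower shares of promoters and coding promoters and a higher share of wide peaks on X than on autosomes held under each of 8 alternatives (-17.9 to -10.8, -33.0 to -23.5 and 3.87 to 17.4 points). The core comparison with the autosomes held under 8 (3.17 to 7.86 points) and that with other X regions under 9 (3.11 to 7.75). Close spacing passed the threshold at 10 kb (8.37), without replicate 2 (4.003 to 10.88 with either replicate left out), on ce10 (7.12, where 4 features were adjusted together), with overlapping peaks counted once (6.62) and without the core peaks (6.64). Strong signal reversed with either replicate left out (0.600 to 0.935, where signals are lower and the limit of 100 stricter). It passed without the core peaks (-7.99), a setting chosen after seeing the data that left out X peaks with a median signal of 257.0. GC content against autosomes reversed with either replicate left out (-4.15 to -2.15) and at 40% (-2.77), and replicate support in the strongest 748 peaks (1.58). Against the next strongest X regions the promoter share no longer passed (6.03), the right part of X reversed (-0.635), TGATAA reversed (1.59), and 1 motif passed instead of 6. The number of motifs that passed against autosomes was 1 instead of 2 in the strongest 748 peaks and with either replicate left out (1 to 1). Against other X regions it was 3 outside promoter windows and 3 at 35% to 55% GC. Reversed motif differences from autosomes, none past the threshold, were in the strongest 748 peaks WWCAAWG (-1.68), GAGAG (1.68) and CCGCCC (0.122). With a replicate left out they were ACAAT (-3.48 to 1.30), GAGAG (-1.30 to 0.755), CAGCTG (-0.176 to 1.52) and GTTCGA (-0.202 to 1.60), as was the middle part of X (-0.758 to 1.44). In 100 bp windows they were ACAAT (0.491) and GAGAG (0.921), outside promoter windows ACAAT (5.84) and CAGCTG (-0.130), and at 35% to 55% GC GAGAG (1.35). Outside promoter windows TGATAA (4.47) and GTTCGA (-1.33) reversed against other X regions. The causes were not tested. No paired analysis was possible because there is 1 group. Unknown depth sets no floor for peaks outside the lists.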
